A study of Homo sapiens with 29 samples.

Results

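Most complexes of oxidative phosphorylation are built from proteins of 2 genomes, and the 99 genes described here encode their subunits and a few assembly factors. They were measured by RNA sequencing in EndoC-βH1, a human pancreatic β-cell line. Members were the protein-coding genes whose symbols start with MT-ND, MT-CO, MT-CYB or MT-ATP (mitochondrial DNA) or with NDUFA, NDUFB, NDUFC, NDUFS, NDUFV, UQCR, COX4 to COX8 or ATP5 (nuclear DNA). A mean of at least 1 CPM, the count scaled to a common library total, over the 29 libraries was also required. Of 66025 entries in the deposited table, 107 met the name rule and 99 also met the level rule, 13 of them mitochondrial and 86 nuclear. The 8 that did not were COX4I2 (0.898 CPM), COX6B2 (0.679), NDUFA6 (0.319), COX7B2 (0.059), ATP5MGL (0.019), COX7A1 (0.005), COX6A2 (0.001) and COX8C (0). Just inside the threshold were UQCRHL at 1.32 CPM, NDUFA4L2 at 1.76 and the readthrough gene NDUFC2-KCTD14 at 1.96. All 99 members passed the filter on low counts and were tested.

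The β-cells were grown for 10 days in medium that had been kept for 3 h on HEK293 cells, a human embryonic kidney line, and that was filtered and adjusted to equal protein. The HEK293 cells stably overexpressed an empty vector (EV), wild-type CEL (WT) or mutant CEL (MUT), and the β-cells themselves carried none of these constructs. CEL is carboxyl ester lipase, a digestive enzyme of pancreatic acinar cells, whose mutation causes an inherited form of diabetes. The labels give 3 batches with every medium in each: 3 EV, 4 WT and 4 MUT libraries in batch 1 and 3 of each in batches 2 and 3, so 9 EV, 10 WT and 10 MUT libraries in all. The labels do not say what a batch shares, nor whether libraries of a group came from separate cultures, so p-values measure the spread between these libraries. Total estimated counts ranged from 26.2 to 40.2 M (mega-counts) per library. All 12 β-cell markers checked, insulin among them, exceeded a mean of 1 CPM, against 1 of 6 acinar and 2 of 6 HEK293-line markers.

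In oxidative phosphorylation, complexes I, III and IV pass electrons from NADH to oxygen and pump protons out of the mitochondrial matrix, and complex V (ATP synthase) uses the returning protons to make ATP. Mitochondrial DNA encodes the core membrane subunits, transcribed as long polycistronic RNAs and cut into separate messages, whereas nuclear genes encode the rest, which are imported. In β-cells the ATP made from glucose closes a potassium channel and starts insulin release, so the pathway is part of how the cell senses glucose.

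Of the mitochondrial members, 7 encode complex I subunits, 1 complex III, 3 complex IV and 2 complex V. Of the nuclear members, 37 encode complex I subunits, 9 complex III, 13 complex IV (NDUFA4 and its relative NDUFA4L2 are counted here) and 19 complex V, and 8 are NDUFAF genes, assembly factors of complex I. The 2 genes of complex V lie on 1 mitochondrial transcript and share coding sequence, so reads from there fit both. The last bases of MT-ATP8 are the first bases of MT-ATP6, chrM:8527-8572, 46 bases, shown because the estimated counts of the pair have to divide these reads (GRCh38, forward strand, from the GENCODE release 29 transcripts).
MT-ATP8 and MT-ATP6 overlap: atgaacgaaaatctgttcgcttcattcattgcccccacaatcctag
MT-ND4L and MT-ND4 overlap by 7 bases at chrM:10760-10766. Copies of mitochondrial genes in the nuclear genome also share reads with members. Entries for nuclear copies held 41.8% as many counts as MT-ATP6 itself, 12.1% as many as MT-CO1, 6.69% as many as MT-ND1 and 1.01% as many as MT-ND2, and no more than 0.0420% for each of the other 9. The copy MTATP6P1 was 98.5% identical to MT-ATP6 over 681 aligned bases and MTCO1P12 was 98.7% identical to MT-CO1 over 1542. Counts for MT-ATP6, MT-CO1 and MT-ND1 are therefore the less certain of the 13.

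Nuclear members are known targets of a few transcription factors, and their promoters are shown here because 78 of the 86 were higher in batch 2 than in batch 1, as described below. A window of 300 bases, from 250 before to 50 after the RefSeq start (GRCh38.p14), was found for 70 of the 86. It was searched on both strands for exact letters of the ETS (CCGGAAGT), ERR (TCAAGGTCA) and CRE (TGACGTCA) motifs, and for the longer NRF1 and YY1 motifs, whose letters are those in capitals in the first and the third window printed here. For each motif found, the window of the member with the largest difference between batches 2 and 1 follows, 5′ to 3′ on the gene's strand, with the motif in capitals.
NDUFA8 (chr9:122159730-122160029, reverse strand): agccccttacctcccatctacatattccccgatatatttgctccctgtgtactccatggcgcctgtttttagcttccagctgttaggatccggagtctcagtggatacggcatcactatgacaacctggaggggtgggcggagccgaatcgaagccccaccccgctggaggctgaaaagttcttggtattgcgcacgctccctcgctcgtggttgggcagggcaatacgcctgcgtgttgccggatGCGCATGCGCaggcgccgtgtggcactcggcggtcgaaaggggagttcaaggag
COX5B (chr2:97645812-97646111, forward strand): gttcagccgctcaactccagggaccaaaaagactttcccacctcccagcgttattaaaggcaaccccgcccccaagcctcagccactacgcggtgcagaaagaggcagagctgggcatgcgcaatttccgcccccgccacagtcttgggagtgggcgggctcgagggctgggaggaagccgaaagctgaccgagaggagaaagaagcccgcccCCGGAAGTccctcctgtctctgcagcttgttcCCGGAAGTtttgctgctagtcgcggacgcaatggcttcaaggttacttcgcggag
NDUFS4 (chr5:53560389-53560688, forward strand): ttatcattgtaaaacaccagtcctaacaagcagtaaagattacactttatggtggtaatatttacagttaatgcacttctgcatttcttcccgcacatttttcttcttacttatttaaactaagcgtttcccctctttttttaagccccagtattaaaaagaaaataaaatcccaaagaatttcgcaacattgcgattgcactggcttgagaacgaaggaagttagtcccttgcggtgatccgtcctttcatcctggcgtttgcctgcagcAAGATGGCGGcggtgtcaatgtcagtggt
ATP5MC1 (chr17:48892537-48892836, forward strand): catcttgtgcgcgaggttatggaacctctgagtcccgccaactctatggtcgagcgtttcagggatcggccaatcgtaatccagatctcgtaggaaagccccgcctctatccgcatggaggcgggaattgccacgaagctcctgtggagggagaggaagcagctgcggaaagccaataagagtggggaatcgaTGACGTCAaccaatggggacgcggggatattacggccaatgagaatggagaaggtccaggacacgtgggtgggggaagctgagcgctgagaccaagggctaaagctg
The motifs do not overlap one another in these windows. The NDUFA8 window holds the NRF1 motif, COX5B 2 copies of the ETS motif, NDUFS4 the YY1 motif and ATP5MC1 the CRE motif. The NRF1 letters were in 4 of the 70 member windows (5.71%) against 1.36% of all 27305 promoter windows, and the ETS letters in 9 (12.9%) against 4.44%. YY1 letters were in 5 (7.14%) against 1.28%, CRE letters in 4 (5.71%) against 1.98%, and ERR letters in none against 0.359%. Promoters of ribosomal protein genes held some of the letters at higher shares than the members and others at lower shares. ETS letters were in 15.9% of windows in both the mitochondrial and the cytosolic list, and YY1 letters in 18.8% and 4.35%. NRF1 letters were in 1.45% of windows in both lists, and CRE letters in 0% and 4.35%. Any of the 5 motifs was in 31.4% of member windows, 33.3% of mitochondrial and 24.6% of cytosolic ribosomal protein windows and 8.81% of all windows. Between batches 2 and 1 the median log2 difference of members with and without the letters was 0.54 and 0.50 for ETS and 0.50 and 0.50 for NRF1. It was 0.32 and 0.51 for YY1 and 0.35 and 0.51 for CRE. Between batches 3 and 1 it was 0.517 and 0.375 for ETS and 0.377 and 0.389 for NRF1. For YY1 it was 0.299 and 0.401 there, and for CRE 0.364 and 0.377. These differences by motif were not tested. A match of letters is a description and not a shown binding site.

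Transcripts of the 13 mitochondrial genes were far more abundant per length than those of the nuclear genes. The median mitochondrial member had 2497 CPM per kb of transcript and the median nuclear member 50.7. MT-CO1, MT-CO2 and MT-CO3, the 3 catalytic-core genes of complex IV, had mean levels of 10120, 9494 and 6721 CPM per kb, followed by MT-ND4 with 6190 and MT-CYB, the cytochrome b gene of complex III, with 3061. MT-ND6 was lowest of the 13 with 85.7 CPM per kb. It is the 1 member encoded on the other mitochondrial strand (chrM:14149-14673), and its message is known to lack the poly(A) tail that the library kit selects for.

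Among nuclear members the level per length was highest for ATP5MF (473 CPM per kb), a membrane subunit of ATP synthase. COX4I1 (380), COX6A1 (327) and COX8A (249) of complex IV and ATP5F1B (231), the catalytic β subunit of ATP synthase, came next. Among isoform pairs, COX4I2, the lung form of COX4, had 1.296 CPM per kb, COX6A2, the muscle form of COX6A, 0.00195, and UQCRHL 0.604 against 163 for its near copy UQCRH. Of the 3 genes for the c-ring subunit of ATP synthase, ATP5MC1 had 68.3 CPM per kb, ATP5MC2 62.7 and ATP5MC3 26.7. Their mean CPM ran the other way, at 41.9, 122 and 146, over transcripts of 614, 1950 and 5484 bases. Length was that of the longest transcript marked as principal in GENCODE, or of the longest transcript where none was so marked. Rankings per length therefore depend on the transcript used. By mean CPM alone, ATP5F1B (424.4) and ATP5F1E (414.5) were the highest nuclear members, and ATP5MF had 144 over 305 bases. NDUFA4 and NDUFA3 were estimated at 4.75 and 3.59 CPM per kb, and NDUFA6 fell under the level rule at 0.319 CPM. Estimated counts divide reads among entries that share sequence, and how far this sets the low values of these 3 genes was not tested.

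**Figure D1:**
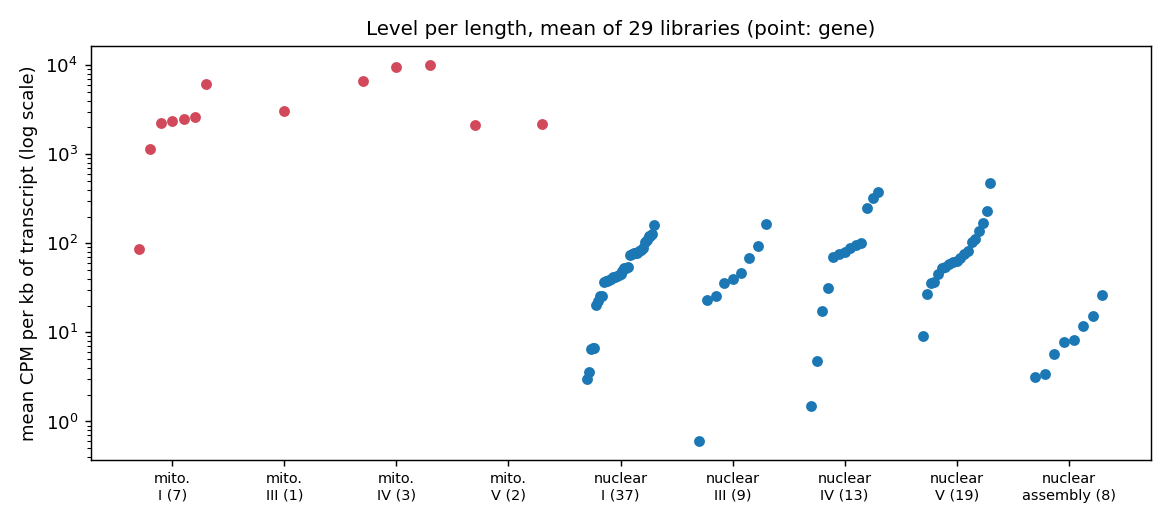
Mean CPM per kb of transcript over 29 libraries on a log axis, 1 point per gene, by genome and complex. The 13 mitochondrial genes (red) lie between 85.7 and 10120, and the 86 nuclear genes (blue) between 0.604 and 473.

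The share of all counts taken by each genome's members separated batch 1 from the others, in opposite directions. Mitochondrial members took between 5.42% and 7.73% of counts in the 11 libraries of batch 1, between 3.77% and 5.11% in batch 2 and between 3.33% and 4.69% in batch 3. Nuclear members took between 0.544% and 0.587% in batch 1, between 0.749% and 0.803% in batch 2 and between 0.708% and 0.760% in batch 3. Neither share in batch 1 overlapped the shares in batches 2 and 3. The ratio of mitochondrial to nuclear counts was 11.6 ± 1.24 (SD, n = 11) in batch 1, 5.75 ± 0.593 (n = 9) in batch 2 and 5.64 ± 0.504 (n = 9) in batch 3.

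**Figure D2:**
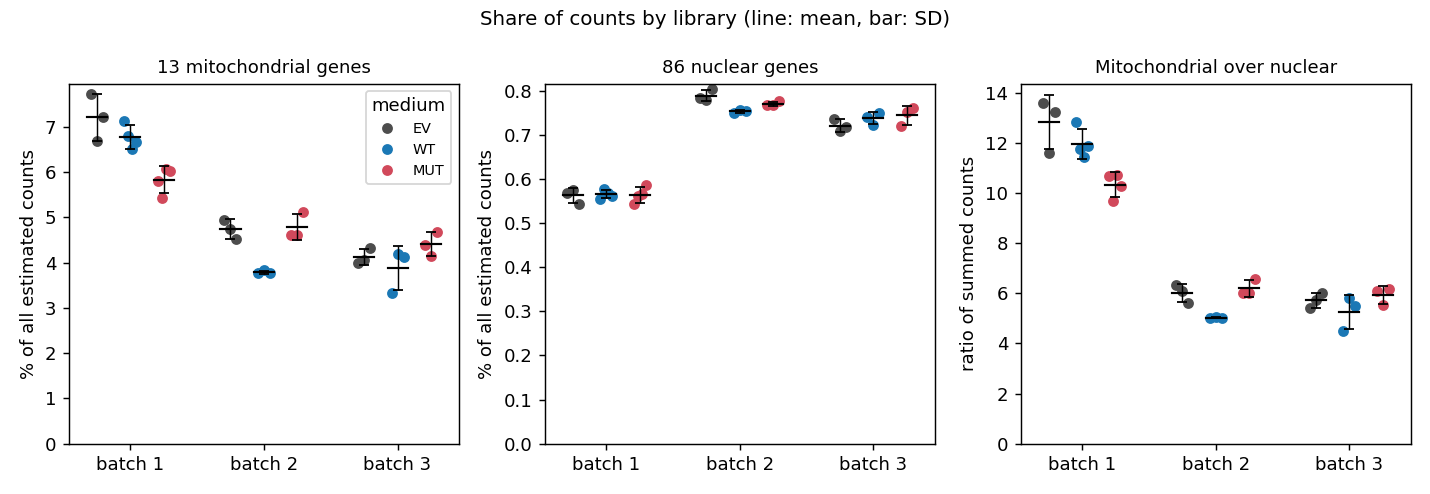
Percent of all estimated counts in the 13 mitochondrial genes, percent in the 86 nuclear genes, and their ratio, by batch and medium, 1 point per library with mean and SD. In batch 1 the ratio lies between 9.68 and 13.6, and in batches 2 and 3 between 4.50 and 6.58.

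Other transcripts moved with these shares. Across the 29 libraries the mitochondrial share correlated with the share of mitochondrial ribosomal RNA (Pearson r = 0.875, and 0.932 within batches), which comes from the same genome. It correlated with the nuclear share at r = -0.843, but at r = 0.242 within batches. NEAT1, a nuclear noncoding RNA that was listed with MALAT1 as a marker of RNA quality and nuclear retention, moved with the batches too. It was 7.08 to 11.6 CPM in batch 1, 2.43 to 3.62 in batch 2 and 2.06 to 3.08 in batch 3, so batch 1 did not overlap the others. MALAT1 was 273 to 432 CPM, 403 to 586 and 245 to 409 in the 3 batches, which overlapped. Their part in the batch results was not tested. The nuclear share correlated at r = 0.932 with the share of cytosolic ribosomal protein genes and at r = 0.991 with that of mitochondrial ribosomal protein genes. These are descriptions over libraries that share batches and a common total, so shares are not independent of one another. The number of mitochondria per cell and the RNA per mitochondrion cannot be told apart in bulk RNA.

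Between batches, every mitochondrial member was lower in batches 2 and 3 than in batch 1. All tests here are edgeR quasi-likelihood tests over all 21259 genes tested, with Benjamini-Hochberg adjustment and a threshold of 0.05. In batch 2 against batch 1, 13 of 13 mitochondrial members passed the test, all lower, with a median log2 fold change of -0.60. Of all genes tested, 66.7% passed and 33% were lower, so the 2 batches differed broadly. In batch 3 against batch 1, again 13 of 13 were lower, with a median of -0.58, where 56.6% of all genes passed and 26.7% were lower. The median over all genes tested was -0.01 and 0.00 in the 2 comparisons, which share the batch 1 libraries.

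MT-CO2, encoding the copper-binding subunit of complex IV, had between 7268 and 10090 normalised CPM in batch 1 (median 8665), between 4714 and 6328 in batch 2 (median 5576) and between 4185 and 5658 in batch 3 (median 4889). The batch 1 libraries were all above the others. Its log2 fold change was -0.68 ± 0.06 (SE) in batch 2 (adjusted p = 8.52e-12) and -0.81 ± 0.06 in batch 3 (adjusted p = 3.56e-13). MT-ND1, a complex I subunit, ranged from 2465 to 3551 in batch 1, from 1759 to 2171 in batch 2 and from 1928 to 2323 in batch 3, without overlap with batch 1. The smallest falls from batch 1 to batch 2 were those of MT-ATP8 (-0.25 ± 0.07) and MT-CO3 (-0.26 ± 0.09), and the libraries of the 2 batches overlapped for both, as they did for MT-ATP6 and MT-CYB. MT-ND6 had the largest fall (-0.85 ± 0.12).

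Nuclear members moved the other way. In batch 2 against batch 1, 81 of 86 passed the test, 78 higher and 3 lower, with a median of 0.50, where 33.7% of all genes were higher. In batch 3 against batch 1, 80 passed, 77 higher and 3 lower, with a median of 0.37, where 29.9% of all genes were higher. By complex in batch 2, 33 of 37 complex I, 8 of 9 complex III, 12 of 13 complex IV, 18 of 19 complex V and 7 of 8 assembly genes were higher. With offsets for GC content and transcript length, added after seeing the data, 74 and 63 nuclear members were higher, and the medians were 0.31 and 0.25.

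**Figure D3:**
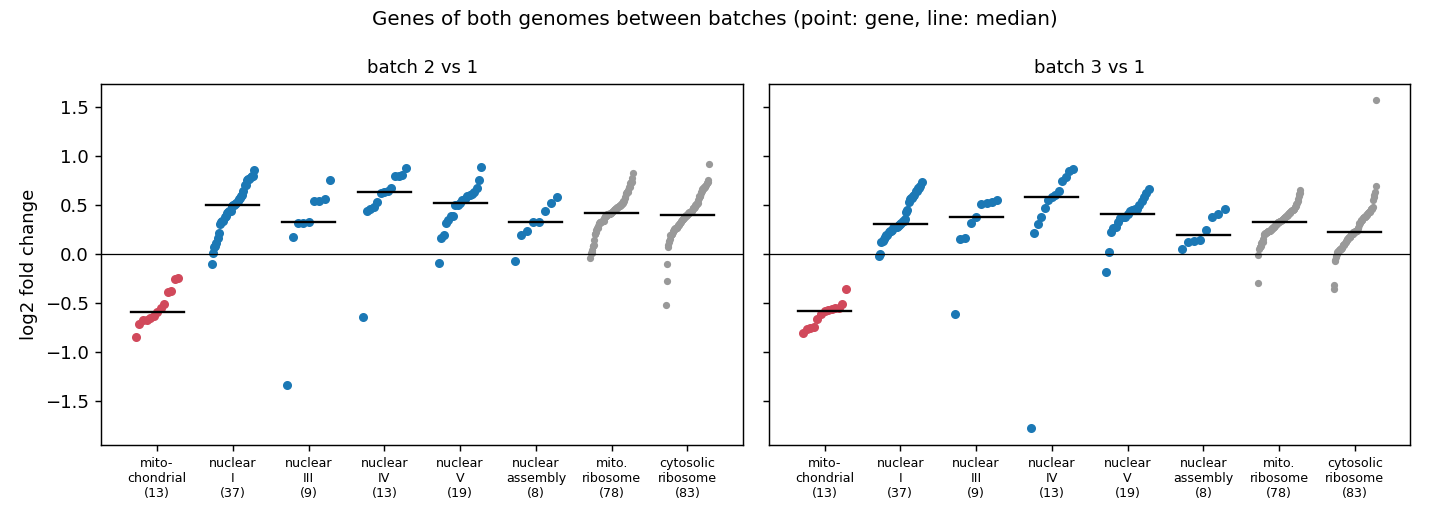
log2 fold change of each gene in batch 2 (left) and batch 3 (right) against batch 1, with the median of each set as a line. Mitochondrial genes (red) have medians of -0.60 and -0.58, and the nuclear sets of complexes I to V (blue) have medians above 0, as do both ribosomal protein lists (grey).

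ATP5MF, the ATP synthase subunit named above, ranged from 102 to 115 normalised CPM in batch 1, from 169 to 197 in batch 2 and from 147 to 166 in batch 3. Its log2 fold change was 0.75 ± 0.03 in batch 2 (adjusted p = 9.16e-19) and 0.54 ± 0.03 in batch 3 (adjusted p = 3.60e-15), and no library of batch 1 overlapped. COX7A2L, which helps join complexes III and IV into supercomplexes, ranged from 64.8 to 74.8 in batch 1, from 112 to 138 in batch 2 and from 99.8 to 109 in batch 3. The largest nuclear rise in batch 2 was that of ATP5MC1 (0.88 ± 0.06, adjusted p = 2.71e-13), and in batch 3 that of COX6A1 (0.87 ± 0.05, adjusted p = 3.42e-15). NDUFB5, an accessory subunit of complex I, rose by 0.76 ± 0.03 and 0.66 ± 0.03. UQCR10 of complex III rose by 0.75 ± 0.04 and 0.55 ± 0.04. The assembly factor NDUFAF8 rose by 0.58 ± 0.05 and 0.45 ± 0.05.

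The nuclear exceptions were few. In batch 2, UQCRHL (-1.34 ± 0.15), NDUFA4L2 (-0.65 ± 0.18) and NDUFV1 (-0.10 ± 0.04), which carries the NADH-binding site of complex I, were lower than in batch 1. In batch 3 they were NDUFA4L2 (-1.78 ± 0.20), UQCRHL (-0.62 ± 0.14) and the readthrough gene ATP5MF-PTCD1 (-0.19 ± 0.05). UQCRHL and NDUFA4L2 are the 2 nuclear members with the lowest mean level. NDUFS1, the largest core subunit of complex I, was at 0.01 ± 0.04 in batch 2 (adjusted p = 0.798).

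Genes with related roles moved with the nuclear members, as listed companions and not as independent support. In batch 2 against batch 1, 73 of 78 mitochondrial ribosomal protein genes were higher (median 0.42), as were 78 of 83 cytosolic ribosomal protein genes (0.40), 8 of 8 complex II genes (0.45) and 10 of 12 citric acid cycle genes (0.24). Mitochondrial DNA and RNA upkeep genes were higher in 19 of 28 and lower in 5. The biogenesis regulators, such as the coactivator gene PPRC1, were higher in 2 of 9 tested and lower in 3 (median 0.03).

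Batches 2 and 3 differed less from each other. Of the mitochondrial members 5 passed, all lower in batch 3 (MT-CO3, MT-ATP8, MT-CYB, MT-ND5 and MT-ND2), where 44.5% of all genes passed and 22.3% were lower. MT-CO3 had the largest of these falls (-0.32 ± 0.09, adjusted p = 0.00604). With sums of each batch and medium as single profiles none of the 13 passed, 2 of them at an unadjusted p under 0.05. Of the nuclear members 41 passed, 37 lower and 4 higher in batch 3 (median -0.10). NDUFS5 (-0.47 ± 0.04) and NDUFS4 (-0.46 ± 0.04) of complex I were among the lower, and ATP5F1E (0.27 ± 0.04) of ATP synthase was among the higher.

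Pooled over batches, the media left the mitochondrial members without a called difference. Between MUT and EV, 0 of 13 passed the edgeR test (0 at an unadjusted p under 0.05, and 0 by DESeq2), with all 13 log2 fold changes below 0, the lowest -0.10 and the median -0.08. Of all genes, 5.2% passed. Between MUT and WT 0 passed (MT-CO3 alone had an unadjusted p under 0.05, and DESeq2 called 0), with a median of 0.08, where 0.884% of all genes passed. Between WT and EV 0 passed (6 at an unadjusted p under 0.05, and 0 by DESeq2), all 13 were below 0 with a median of -0.14, and 0.315% of all genes passed. MT-CO3 had the largest pooled value there (-0.21 ± 0.09, adjusted p = 0.302).

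Among the nuclear members, 3 of 86 (3.49%) passed between MUT and EV, 1 higher and 2 lower, where 2.95% of all genes were higher and 2.25% lower. NDUFV1 (-0.14 ± 0.04, adjusted p = 0.0483) and the assembly factor NDUFAF2 (-0.19 ± 0.05, adjusted p = 0.0401) were lower. All 3 calls were lost without batch 2, where NDUFV1 had an adjusted p of 0.665 and NDUFAF2 of 0.520, and with a fit to the 2 groups compared or without the low-count filter. Leaving out any 1 EV or MUT library of batch 2, or MUT replicate 2 of batch 1, left 0 calls, and leaving out EV replicate 2 or WT replicate 1, 3 or 4 of batch 1 left 1. Between MUT and WT and between WT and EV, 0 of 86 passed (13 and 4 at an unadjusted p under 0.05, and 0 by DESeq2).

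Few companion genes were called. Between MUT and EV, where 5.2% of all genes passed, 2 of 78 mitochondrial ribosomal protein genes passed, MRPL50 (0.14) and MRPS25 (-0.17), and 0 of 83 cytosolic ones (4 at an unadjusted p under 0.05). The complex I assembly gene FOXRED1 (-0.19), the mitochondrial RNA gene FASTKD5 (0.15), the regulator PPRC1 (-0.14) and the citric acid cycle gene IDH3A (0.11) passed as single genes of their lists. In batch 3 these 6 genes had values from -0.03 (IDH3A) to 0.07 (FOXRED1), against -0.45 (MRPS25) to 0.32 (MRPL50) in batch 2. Between MUT and WT, where 0.884% of all genes passed, MRPS6 (0.20), MRPL48 (0.20), SDHAF3 of complex II assembly (0.17) and citrate synthase, CS (0.10), passed.

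Differences between media were not the same in each batch. A test of medium by batch passed for 12 of 13 mitochondrial members, all but MT-ND6 (adjusted p = 0.109), and for 44 of 86 nuclear members, where 49.2% of all genes passed. For the nuclear members that is 51.2%. By complex, 16 of 37 complex I, 4 of 9 complex III, 9 of 13 complex IV, 11 of 19 complex V and 4 of 8 assembly genes passed. Without batch 2 the nuclear count was 2, and without batch 1 the mitochondrial count was 3. The share of all genes passing in these reduced fits is not given here, so the lower counts are not particular to the members.

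In batch 1 the mitochondrial share was lowest in MUT. It was 5.42%, 5.81%, 6.02% and 6.08% in the 4 MUT libraries, 6.51%, 6.68%, 6.80% and 7.13% in the 4 WT libraries and 6.68%, 7.22% and 7.73% in the 3 EV libraries. MUT did not overlap either group, whereas EV and WT overlapped. MT-ND1 in batch 1 was between 3166 and 3551 normalised CPM in EV, between 2971 and 3249 in WT and between 2465 and 2766 in MUT. Its log2 fold change in MUT against EV was -0.39 ± 0.06 (adjusted p = 0.0181).

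Of the 13 mitochondrial members, 9 were lower in MUT than in EV in batch 1 (median -0.33), where 1.4% of all genes passed and 0.907% were lower. No nuclear member passed (7 at an unadjusted p under 0.05, median -0.03). Against WT, 3 were lower (MT-ND1, MT-ND2 and MT-ND5, median -0.23), where 0.277% of all genes passed and 0.22% were lower. Between WT and EV 0 members of either genome passed, against 0.0143% of all genes (0 mitochondrial and 1 nuclear at an unadjusted p under 0.05). These counts depended on single libraries and on how the spread was estimated. Without EV replicate 2, EV replicate 4, MUT replicate 2 or MUT replicate 3 the count for MUT against EV was 0. In these runs 1, 7, 2 and 2 of all genes passed. EV replicate 2 had the highest mitochondrial share of all 29 libraries, 7.73%, and its sample number in the labels is out of sequence with the rest of the batch. It was used as labelled. The count was 2, 1 and 3 without WT replicate 1, 3 and 4, and 1 without robust dispersions. There 6, 4, 8 and 3 of all genes passed. The median itself stayed between -0.39 and -0.27 over the 11 libraries left out in turn. The count of 3 against WT was 0 without EV replicate 2 or 4, WT replicate 1, 2 or 3, or MUT replicate 1, 2 or 3, and 7 without MUT replicate 4. Without MUT replicate 4, 7 nuclear members passed for MUT against EV and 2 against WT, where 3018 and 1314 of all genes passed. With every library 294 and 58 of all genes passed. Mitochondrial ribosomal RNA moved with the members: its share of counts was 0.346% to 0.380% in MUT, 0.382% to 0.453% in WT and 0.397% to 0.549% in EV, and NEAT1 was 7.08 to 9.20 CPM in MUT, 9.17 to 10.03 in WT and 10.6 to 11.6 in EV. MALAT1 was 273 to 357 CPM in MUT, 385 to 432 in WT and 344 to 408 in EV. Their part in the result was not tested.

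In batch 2 the WT libraries were the low ones. Their mitochondrial shares were 3.77%, 3.78% and 3.83%, against 4.52%, 4.75% and 4.95% in EV and 4.61%, 4.62% and 5.11% in MUT, with no overlap of WT with either. All 13 mitochondrial members were lower in WT than in EV (median -0.33), where 38.9% of all genes passed and 19.3% were lower. All 13 were higher in MUT than in WT (median 0.32), where 33.1% passed and 16.8% were higher, and these comparisons share the WT libraries. Between MUT and EV 2 were higher, MT-CO3 (0.19, adjusted p = 0.00306) and MT-CYB (0.14, adjusted p = 0.0218), where 47.8% of all genes passed. The count of 2 was 1 without EV replicate 3. The share of mitochondrial ribosomal RNA was again lowest in WT, at 0.209% to 0.225%, against 0.276% to 0.298% in EV and 0.270% to 0.303% in MUT. MALAT1 was lowest in WT too, at 403 to 423 CPM against 485 to 497 in EV and 520 to 586 in MUT, with no overlap. Their part in the result was not tested.

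MT-CO3 in batch 2 was 5166, 5557 and 5726 normalised CPM in EV, 4023, 4026 and 4086 in WT, and 5989, 6003 and 6663 in MUT. None of the 3 groups overlapped. Its log2 fold change in WT against EV was -0.44 (adjusted p = 8.74e-07). MT-ND3, a small complex I subunit, was 346, 358 and 390 in EV and 241, 250 and 258 in WT, and had the largest difference of the 13 (-0.55, adjusted p = 2.17e-06). MT-ND1 had the smallest (-0.15, adjusted p = 0.0121).

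In batch 3 none of the 13 mitochondrial members passed in any of the 3 comparisons. An unadjusted p under 0.05 was found for 5 of them in MUT against EV, 4 in MUT against WT and 0 in WT against EV. Of all genes, 0.049%, 1.22% and 0.00981% passed. Mitochondrial shares were 4.00%, 4.06% and 4.32% in EV, 3.33%, 4.14% and 4.20% in WT and 4.16%, 4.39% and 4.69% in MUT, and all groups overlapped. WT replicate 1 had both the lowest share and the fewest counts of all libraries, 26.2 M. Without it, 2 mitochondrial and 13 nuclear members passed between MUT and EV, and without WT replicate 3 the counts were 1 and 3. In these runs 975 and 199 of all genes passed, against 10 with every library. Without WT replicate 3, 3 mitochondrial and 12 nuclear members passed between MUT and WT. There 1051 of all genes passed, against 248 with every library.

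**Figure D4:**
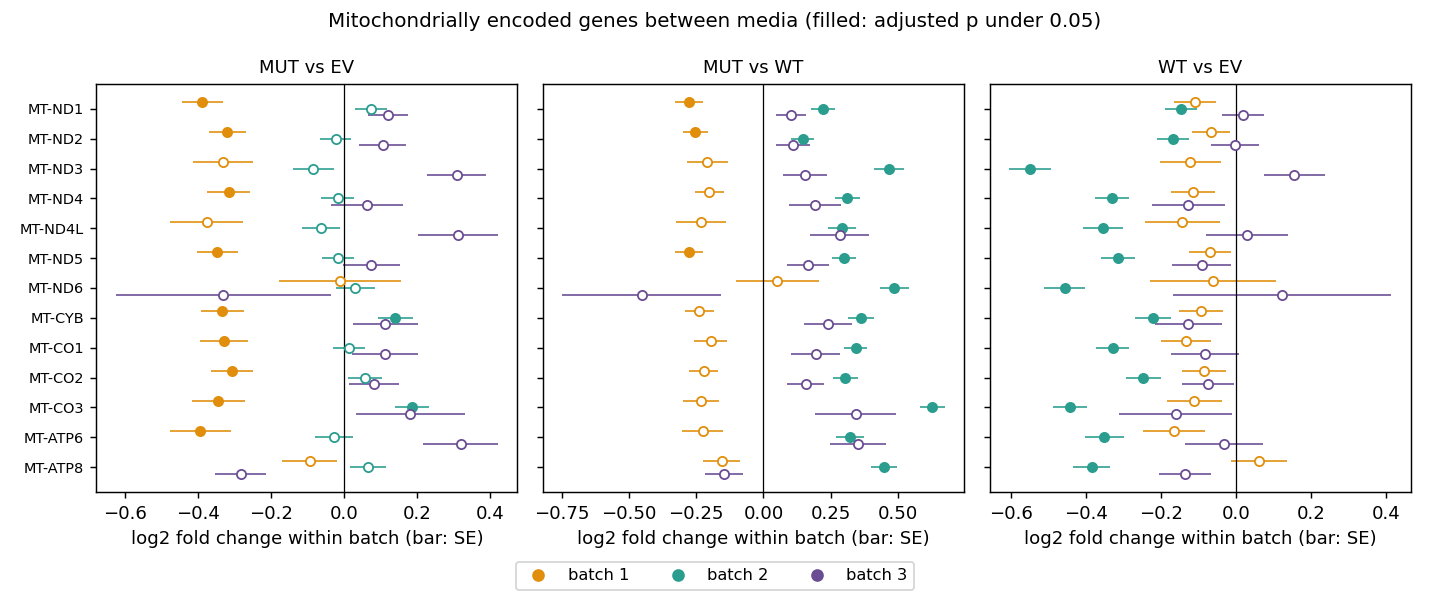
log2 fold change of the 13 mitochondrial genes within each batch, with SE, for the 3 comparisons of media. Filled points passed the test. In MUT against EV, 9 are filled in batch 1, all below 0, and 2 in batch 2, above 0. In WT against EV, 13 are filled in batch 2, all below 0.

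The ratio of the 2 genomes followed the same pattern. Its log2 difference between MUT and EV was -0.31 in batch 1 and 0.05 in batches 2 and 3, against an SD of 0.10 within batch and medium. Between WT and EV it was -0.10, -0.25 and -0.13 in batches 1, 2 and 3, below 0 in each. Between MUT and WT it was -0.21, 0.30 and 0.18. Single libraries carried some of these values, by a check chosen after seeing the data. Without WT replicate 1 of batch 3, WT against EV there was -0.02 and MUT against WT 0.07. Without EV replicate 2 of batch 1, WT against EV there was -0.05, and without EV replicate 3 it was -0.17. Between MUT and EV, the value in batch 2 ranged from -0.00133 to 0.0827 and that in batch 3 from 0.013 to 0.10 over the libraries left out in turn.

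Within batch 2, 37 of 86 nuclear members (43.0%) passed between WT and EV, 30 lower and 7 higher, where 19.3% of all genes were lower and 19.6% higher. Between MUT and EV 40 passed, 23 lower and 17 higher, where 23.8% of all genes were lower and 24.1% higher. Between MUT and WT 34 passed, 25 higher and 9 lower, where 16.8% of all genes were higher and 16.4% lower. The count for WT against EV was 24 without WT replicate 1, where 6650 of all genes passed, against 8006 with every library. The count for MUT against WT was 22 without WT replicate 3, where 5281 of all genes passed, against 6815 with every library. The cytosolic ribosomal protein genes moved with the nuclear members. Of 83, 58 were lower in WT than in EV and 55 were higher in MUT than in WT. Their part in the result was not tested. In batch 3 no nuclear member passed in any comparison. For MUT against EV 23 had an unadjusted p under 0.05, for MUT against WT 20 and for WT against EV 0.

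The nuclear members with the smallest p in the medium by batch test are described by complex. In complex I, NDUFA1, an accessory subunit encoded on the X chromosome, was lower in WT than in EV in batch 2 (-0.22, adjusted p = 4.53e-04) and higher in MUT than in WT (0.34, adjusted p = 8.72e-06). NDUFA7 was lower in MUT than in EV in batch 2 (-0.23, adjusted p = 0.00300), with values of -0.16 in batch 1 and 0.42 in batch 3 that did not pass (adjusted p = 0.280 and 0.115). In complex III, UQCRFS1, the Rieske iron-sulfur protein, was 77.3, 80.7 and 81.6 normalised CPM in EV of batch 2, 94.4, 97.5 and 99.5 in WT and 92.3, 100 and 102 in MUT. It was higher in both than in EV (0.28 and 0.30, adjusted p = 9.50e-05 and 2.95e-05). Its counts share reads with UQCRFS1P1 and 2 further copies, which held 6.55% as many counts. UQCRB, a small ubiquinone-binding subunit, was higher in MUT than in either other medium (0.29 against EV and 0.27 against WT, adjusted p = 1.19e-05 and 7.16e-05).

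In complex IV, COX7A2 was lower in WT than in EV in batch 2 (-0.35, adjusted p = 1.38e-05) while its relative COX7A2L was higher (0.18, adjusted p = 0.00267). In complex V, all 3 c-ring genes were lower in WT than in EV in batch 2, and ATP5MC1 and ATP5MC2 were also lower in MUT. ATP5MC2 was 164, 176 and 179 normalised CPM in EV, 142, 145 and 145 in WT and 125, 129 and 131 in MUT, so the groups did not overlap. It fell by 0.27 in WT and by 0.43 in MUT on the log2 scale (adjusted p = 4.86e-05 and 1.63e-07). ATP5MC1 fell by 0.29 and 0.42 (adjusted p = 5.41e-05 and 6.77e-07). ATP5MC3 was lower in WT (-0.20, adjusted p = 4.50e-04) and at -0.02 in MUT (adjusted p = 0.727), and its difference from the other 2 was not tested. ATP5F1B was lower than in EV in batch 2 in both WT (-0.16, adjusted p = 0.00128) and MUT (-0.13, adjusted p = 0.00582).

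The largest difference between media of any member was that of NDUFA4L2, a relative of NDUFA4 known to be induced by low oxygen. In batch 2 it was 0.712, 0.887 and 0.957 normalised CPM in EV, 2.55, 2.90 and 3.32 in WT and 1.28, 1.29 and 1.72 in MUT. The 3 groups did not overlap, and WT exceeded EV by 1.77 ± 0.18 (adjusted p = 7.10e-07) on the log2 scale. MUT against WT was -1.02 ± 0.17 (adjusted p = 1.90e-04). MUT exceeded EV by 0.75 ± 0.19 (adjusted p = 0.00385). In batch 1 EV was between 2.08 and 3.57, WT between 2.46 and 2.96 and MUT between 2.17 and 2.68. In batch 3 all 9 libraries were between 0.517 and 1.08. Neither showed a called difference, and the medium by batch test gave an adjusted p of 8.42e-06. The gene is among the lowest members, and the pooled value for WT against EV was 0.53 ± 0.20 (adjusted p = 0.224).

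**Figure D5:**
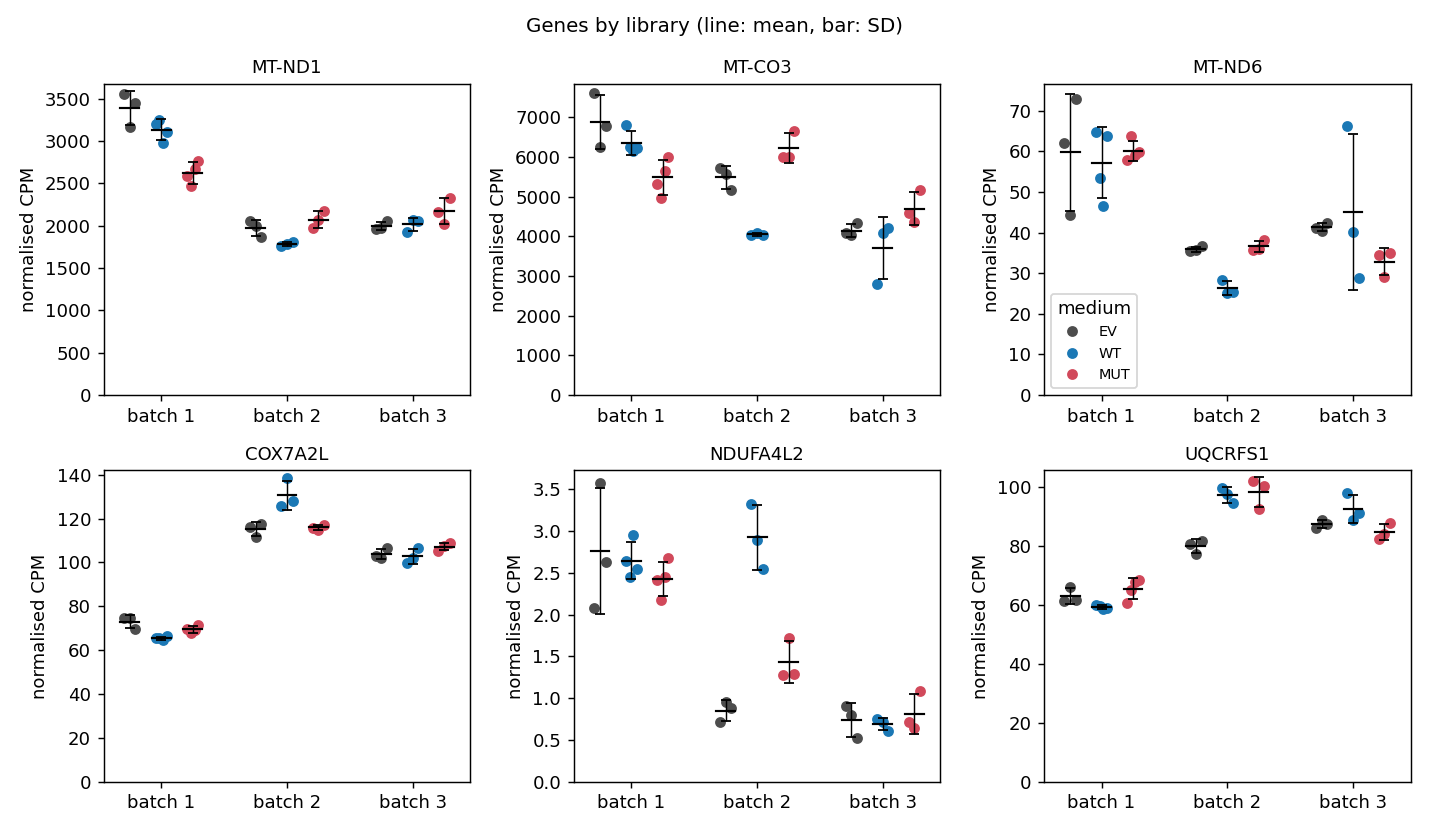
Normalised CPM of 6 members by batch and medium, 1 point per library with mean and SD. MT-ND1 is highest in batch 1 and lowest there in MUT, MT-CO3 is low in WT of batch 2, and NDUFA4L2 exceeds 2.5 in WT of batch 2 against less than 1 in EV.

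MT-ND6, the lowest mitochondrial member, spread widely within some groups. In batch 1 it was 44.4, 62.1 and 73.0 normalised CPM in EV and between 57.8 and 63.7 in MUT, and its log2 fold change was -0.01 (adjusted p = 0.979). In batch 3 WT replicate 1 had 66.3 against 40.04 and 28.9 in the other WT libraries, the same library that was lowest for MT-CO3 (2801 against 4079 and 4206). A difference between MT-ND6 and the other 12 was not tested. The kit keeps strand, but whether the counts used it is not given in the sources used here.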

How the data were processed

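The data are 29 RNA-seq libraries of EndoC-βH1 cells (stranded poly(A) mRNA kit, per the labels' protocols). Per the submitters' processing notes, fastp and kallisto were used. No version, genome build or annotation is given in the sources used here. From these steps the authors deposited 1 table of estimated counts per gene, not normalized, and a count can be a share of a read that fits several genes. All 29 columns were matched to samples by their names, and 0 columns belonged to other samples.

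Estimated counts were rounded to whole numbers. Genes were kept with filterByExpr and scaled with TMM (normalised CPM uses these factors), and media and batch were fitted together with edgeR 4.0.16 in R 4.3.3 (quasi-likelihood test, robust dispersions, Benjamini-Hochberg adjustment over 21259 genes). Medium by batch was a test of 4 interaction coefficients, and each batch was also fitted alone. Alternatives used DESeq2 1.42.0 and limma 3.58.1. Symbols were matched for 59369 of 66025 entries, and coordinates are from GENCODE release 29 on GRCh38. On simulated counts for MUT against EV (21019 genes), 88% of 100 genes changed by 0.5 on the log2 scale and 98% of 100 changed by 1 were recovered. There were 5 false calls. The change was the same in every batch, so these shares do not cover differences that vary between batches.

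Members and companion lists were chosen with earlier results of these data known. The named genes were all mitochondrial members, the 3 nuclear members per complex with the smallest p in each comparison, the 3 highest and lowest per complex, those next to the CPM threshold, isoform pairs and regulators, and 2 genes per companion list. The values of 1 nuclear member are not reported here. Others named for the size of their difference were chosen after their values were seen.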

Additional observations from a re-analysis of the deposited data

Results flagged for a closer look

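Differences between media were not the same in every batch for 12 of 13 mitochondrial and 44 of 86 nuclear members by the edgeR test of medium by batch (4 coefficients), against 49.2% of all genes tested. The adjusted p was 1.68e-06 for MT-ND1, 8.02e-05 for MT-ND2, 1.96e-05 for MT-ND3, 8.53e-04 for MT-ND4, 0.00235 for MT-ND4L and 3.76e-05 for MT-ND5. It was 5.72e-05 for MT-CYB, 3.70e-04 for MT-CO1, 8.77e-05 for MT-CO2, 3.37e-04 for MT-CO3, 3.50e-04 for MT-ATP6 and 9.22e-05 for MT-ATP8. Batch 1 had low values in MUT and batch 2 low values in WT.

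Of the nuclear members named for the smallest p, those of complex I were NDUFA1 (adjusted p = 5.34e-05), NDUFA7 (3.77e-04) and NDUFB6 (0.00128). In complex III they were UQCRFS1 (4.13e-05), UQCRB (8.03e-04) and UQCRH (0.014). In complex IV they were NDUFA4L2 (8.42e-06), COX7A2L (1.06e-04) and COX7A2 (1.24e-04), and in complex V ATP5MC2 (5.43e-05), ATP5MC1 (3.19e-04) and ATP5F1B (0.00378). Among assembly factors they were NDUFAF3 (0.00896), NDUFAF7 (0.0175) and NDUFAF1 (0.0194).

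One library stood apart from its group. In batch 1, MT-CO3 in WT replicate 1 was 6795 normalised CPM against 6258 in the next highest of the 4 WT libraries, a gap of 0.831 of the group's range (limit 0.829). It was the only one flagged among 85 sets of values checked, and chance alone flags about 1 set in 20. These sets did not include every medium within every batch, and some pooled a medium over batches. In pooled sets the differences between batches widen the range, so a single library is hard to flag. The check therefore does not show that no other library stood apart from its group.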

How the results depend on the processing

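No called result changed direction under any alternative run. The counts for batches 2 and 3 against batch 1 stayed within 1.5 times under each alternative. Nuclear calls for MUT against EV (3) became 5 with DESeq2, 6 with GC and length offsets, 10 without batch 3, and 0 with no filter, voom with quality weights, without batch 2, with the replicate block, no batch term, only the 2 groups compared, 1 summed profile per batch and medium, or voom with estimated correlation (0.431). No pairing of libraries by replicate number was seen (28 same-numbered pairs correlated at -0.0577 to 0.0889, and 66 other pairs at -0.112 to 0.0593). The replicate block left the other pooled media counts at 0 and medium by batch calls at 12 and 44. Without batch 3, mitochondrial MUT against EV calls were 1, and nuclear MUT against WT and WT against EV calls 1 each. GC and length offsets gave 1 nuclear call for MUT against WT, and leaving out batch 1 gave 2 mitochondrial ones. Mitochondrial calls for batch 3 against 2 (5) were 1 and 2 with the voom fits, 0 with summed profiles and 3 with GC and length offsets, and nuclear ones (41) 9 with summed profiles. Medium by batch calls were 3 (mitochondrial) without batch 1 and 2 (nuclear) without batch 2. The share of all genes passing in each of these alternative fits is not given here. Changes in these counts are therefore not results about the members alone.

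Leaving out 1 library at a time, nuclear MUT against EV calls ranged from 0 to 4. Within batch 1, mitochondrial calls ranged from 0 to 11 (MUT against EV) and 0 to 7 (MUT against WT), and nuclear ones from 0 to 7 and 0 to 2. Calls over all genes there ranged from 1 to 3018 and from 0 to 1314. Within batch 2, mitochondrial MUT against EV calls ranged from 1 to 3. Nuclear calls there ranged from 22 to 37 for MUT against WT and from 24 to 40 for WT against EV. Calls over all genes in these 3 comparisons ranged from 8715 to 9644, from 5281 to 7245 and from 6597 to 8127. Within batch 3, mitochondrial calls ranged from 0 to 2 (MUT against EV) and 0 to 3 (MUT against WT), and nuclear ones from 0 to 13 and 0 to 12. Calls over all genes there ranged from 3 to 975 and from 26 to 1051. Without robust dispersions, batch 1 gave 1 mitochondrial call for MUT against EV and 0 for MUT against WT. Total counts as the scaling, with or without mitochondrial DNA genes, gave 1 mitochondrial call for MUT against EV in batch 2, and DESeq2 size factors 1 nuclear call for MUT against WT in batch 3.

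The log2 ratio of the genomes differed by -0.07 (MUT against EV) and 0.09 (MUT against WT) over batches. Without batch 1 these were 0.0482 and 0.238, and without batch 2 the latter was -0.0174. For other changes the cause was not tested. Of the alternative values for single genes, 7176 kept their side of the threshold, 108 lost the call and 24 gained one. Changes of sign among values that were uncalled in both fits were not counted.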
